A study of Mus musculus with 3 samples.

Results

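The transcripts described here are those of 10 genes of the NF-κB pathway, the subunits Nfkb1, Nfkb2, Rela, Relb and Rel, the inhibitors Nfkbia, Nfkbie and Tnfaip3, and the kinases Map3k14 and Ikbkb. They were taken by gene symbol from the mRNA table, and all 10 were listed, among 15861 genes. The libraries held RNA of apoptotic bodies (ABs), the membrane-bound fragments shed by dying cells, from bone marrow macrophages (BMM-ABs), preosteoclasts (pOC-ABs) and mature osteoclasts (mOC-ABs), with 1 library of each and no replicates. All cells came from the bone marrow of C57BL/6 mice at postnatal week 11, and no genetic change or untreated control was named for any group. BMMs were grown in M-CSF at 50 ng/ml for 72 h. pOCs and mOCs then received M-CSF at 30 ng/ml with RANKL, the cytokine that drives osteoclast formation, at 100 ng/ml, for 24 h in pOCs and for at least 72 h in mOCs. According to the labels, alendronate, a bisphosphonate that kills osteoclasts, was added at 500 μM for 12 h to release ABs from all 3 cell types. The methods of the study instead name staurosporine as the inducer and a later harvest of mOCs. They also give M-CSF at 50 ng/ml together with RANKL and a shorter culture of BMMs in M-CSF. The doses and times given here are those of the labels. The sample titles name the cells and the series design names their ABs, so the libraries were taken as ABs. Nothing in the labels says how many mice or cultures were pooled in a library.

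NF-κB proteins are dimeric transcription factors that IκB proteins hold in the cytoplasm. In the canonical branch the IKK complex, with IKKβ as its main catalytic subunit, phosphorylates IκB proteins for degradation and frees dimers of Rela or Rel with the product of Nfkb1. In the alternative branch the kinase NIK drives processing of the Nfkb2 precursor and frees dimers with Relb. RANKL uses both branches through its receptor RANK, and mice without Nfkb1 and Nfkb2 together form no osteoclasts.

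Where 3 values follow each other below, they stand in the order of differentiation, BMM-ABs first and mOC-ABs last. The mRNA table held 9100082, 7387317 and 7705592 reads, and levels are given as RPM, reads per 1000000 reads of these totals. Summed markers of osteoclasts stood at 345, 581 and 1870 RPM and those of macrophages at 5867, 2815 and 1809 RPM. Single genes weighed heavily, with Nfatc1 at 282, 375 and 1098 RPM in the first sum and Lyz2 at 3170, 1334 and 411 in the second. From pOC-ABs to mOC-ABs, 4 of 7 macrophage markers with at least 20 reads fell more than 2-fold. Csf1r instead went from 357 to 506 RPM, and Cd68 stood at 649 and 656. Oscar, an osteoclast receptor, had 0, 7 and 49 reads, Itgb3 had only 6, 3 and 0, and Calcr was not listed. B-cell markers summed to 242, 90.7 and 20.9 RPM and came almost wholly from Ighm, with Cd79a at 2, 1 and 0 reads and Ms4a1 not listed. No marker of neutrophils was listed, and those of T cells, erythroid cells, megakaryocytes, stromal cells and endothelial cells summed to at most 10.8 RPM in any library. The part of these markers in the results below was not tested. Fewer cells of a type and less RNA per cell cannot be told apart in such libraries.

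The sequences on which the results by transcript turn are shown first. Relb-201, Relb-202 and Relb-203 are models of full-length Relb mRNA on the minus strand of chromosome 7 (GRCm38, GENCODE M21). Exon 3 of Relb-202, coding sequence at chr7:19622926-19622934, is in capitals and is missing from Relb-201. In Relb-203 the same bases stand in the mature RNA, but the exon is annotated with a shifted boundary, at chr7:19622926-19622936, as its capitals show.
Relb-201: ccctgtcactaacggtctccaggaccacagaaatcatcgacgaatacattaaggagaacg
Relb-202: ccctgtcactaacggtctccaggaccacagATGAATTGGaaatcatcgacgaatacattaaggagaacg
Relb-203: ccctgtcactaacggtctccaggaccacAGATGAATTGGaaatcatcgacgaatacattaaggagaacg

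Ikbkb-201 and Ikbkb-202 differ at the 3′ end of the coding sequence on the minus strand of chromosome 8, shown in capitals after 30 shared bases. Ikbkb-201 ends in 66 coding bases of its last exon, at chr8:22660394-22660459, and Ikbkb-202 reads on past the shared exon for 9 coding bases, at chr8:22661393-22661401. Their coding sequences are 757 and 738 codons long. This end of IKKβ is known to hold the segment that binds NEMO, the regulatory subunit of the IKK complex.
Ikbkb-201: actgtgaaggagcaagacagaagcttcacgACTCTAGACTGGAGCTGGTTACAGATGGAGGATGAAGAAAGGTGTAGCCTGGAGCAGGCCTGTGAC
Ikbkb-202: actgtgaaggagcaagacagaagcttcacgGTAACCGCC

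The 250 bases before the RefSeq start (GRCm38.p6) are shown for Nfkbia, Nfkb2 and Rel. Only these 3 members had a higher level, with a counting interval above 0, in both pOC-ABs and mOC-ABs against BMM-ABs by the mRNA table. Scaled to the total of the mRNA and lncRNA tables, the log2 ratio of Nfkb2 in pOC-ABs was 0.07. With overlapping lncRNA-table reads added, the interval of Rel in mOC-ABs held 0 (-0.05 to 0.27). Matches to the κB consensus, searched on both strands, are in capitals. The windows are chr12:55492648-55492897 on the minus strand, chr19:46304487-46304736 on the plus strand and chr11:23770970-23771219 on the minus strand.
Nfkbia promoter: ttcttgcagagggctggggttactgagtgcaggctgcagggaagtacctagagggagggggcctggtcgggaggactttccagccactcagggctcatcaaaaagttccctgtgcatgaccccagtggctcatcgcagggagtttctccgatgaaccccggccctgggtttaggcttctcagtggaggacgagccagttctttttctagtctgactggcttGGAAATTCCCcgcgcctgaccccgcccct
Nfkb2 promoter: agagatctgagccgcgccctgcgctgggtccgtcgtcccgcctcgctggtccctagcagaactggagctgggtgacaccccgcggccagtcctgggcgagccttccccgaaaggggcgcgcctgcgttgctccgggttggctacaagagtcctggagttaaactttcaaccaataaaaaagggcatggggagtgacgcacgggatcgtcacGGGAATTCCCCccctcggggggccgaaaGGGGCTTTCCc
Rel promoter: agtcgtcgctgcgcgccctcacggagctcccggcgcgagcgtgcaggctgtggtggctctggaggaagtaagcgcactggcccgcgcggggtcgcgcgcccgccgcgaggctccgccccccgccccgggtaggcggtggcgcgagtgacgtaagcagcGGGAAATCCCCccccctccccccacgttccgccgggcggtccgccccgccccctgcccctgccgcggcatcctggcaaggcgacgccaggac

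The match of Nfkbia began 29 bases before the start, and the pair of overlapping matches of Rel began 92 and 91 bases before it. In the Nfkb2 window shown, overlapping matches began 39 and 38 bases before the start and another began 11 bases before it. The 7 members with a promoter had 10 RefSeq windows, and for a gene with several the one nearest the start of its most-read transcript is shown. Further Nfkb2 windows, at chr19:46305445-46305744 and chr19:46305680-46305979, held matches from 236 bases before and from 10 bases after the start in the first and from 225 bases before it in the other. These windows overlap, and the match 10 bases after the start of the first is the same site as the match in the other. Nfkbie had a match 106 bases and Tnfaip3 matches 125 and 12 bases before the start, none was found in Rela or Map3k14, and no window was at hand for Nfkb1, Relb and Ikbkb. Of all 32851 promoter windows of 300 bases, 8.46% held the consensus. Of the 10 member windows 7 did, and these include the overlapping Nfkb2 windows that share a site. A match is a string of letters, and binding was not measured.

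Levels of the members ran from 4.28 FPKM for Rel in BMM-ABs to 138 FPKM for Nfkbia in mOC-ABs. Per length, by FPKM summed over the transcripts of a gene and averaged over the 3 libraries, Nfkbia ranked 810th of the genes, Nfkb1 1699th, Nfkb2 2643rd, Rela 2748th and Ikbkb 2945th. The other members were lower, from Nfkbie at rank 6493 through Relb at 6527, Tnfaip3 at 7214 and Map3k14 at 7500 to Rel at 8296. Rel, whose only transcript is 7466 bases long, stood last on this scale, with a summed FPKM of 4.28, 10.2 and 10.7. Neighbours in this order such as Nfkb2, Rela and Ikbkb, with 33.9, 40.0 and 34.7 FPKM in BMM-ABs, were not separated by any spread that could be estimated.

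**Figure D1:**
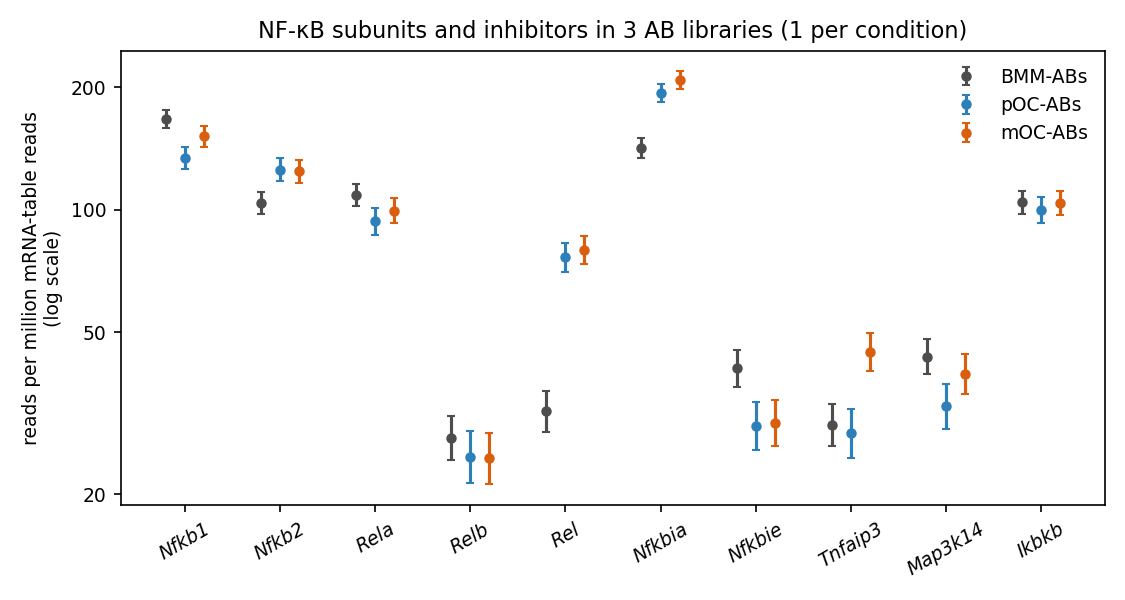
RPM of the mRNA table (log axis) for the 10 members in the 3 libraries, 1 per cell type, with bars for the 95% counting interval. Rel stands at 32.0 in BMM-ABs against 76.5 and 79.8 in the other libraries, and no other member shows such a gap.

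The study compared pOC-ABs with BMM-ABs (G1), mOC-ABs with BMM-ABs (G2) and mOC-ABs with pOC-ABs (G3) to follow AB content through osteoclast differentiation. These comparisons share libraries and are not independent. With 1 library per group no difference could be set against a spread between replicates, so no test was made. Each log2 ratio of RPM is given with its exact 95% counting interval, which covers counting error only, and a ratio above 2 or below 0.5 was taken as past 2-fold, the fold limit of the study. In G1 1 of 10 members was past 2-fold, against 10.9% of all 12713 genes with at least 20 reads. G2 also had 1 member past it, against 13.2% of genes, and G3 had 0, against 10.4%. Median log2 ratios of the members were -0.11, -0.06 and 0.07, against -0.02, -0.05 and -0.05 over all genes. Counting intervals of G1 lay above 0 for 3 of 10 members and below it for 4, against 26.1% and 30.3% of all genes (56.4% for either). For G2 they lay above for 4 members and below for 2, against 23.8% and 31.7% (55.5%). For G3 they lay above for 4 and below for 0, against 21.9% and 27.2% (49.1%).

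Rel (chr11:23736847-23770970, minus strand) encodes c-Rel, a subunit with its own transactivation domain, and was the member past 2-fold. Rel-201, its single transcript, had 291, 565 and 615 reads, or 32.0, 76.5 and 79.8 RPM. BMM-ABs were low and the other libraries lay close together. For G1 the log2 ratio was 1.26 (interval 1.05 to 1.47), a 2.39-fold higher level, and for G2 it was 1.32 (1.12 to 1.53), a 2.50-fold higher level. For G3 it was 0.06 (-0.11 to 0.23).

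The lncRNA table held reads from the same stretch of the genome. The transcript NONMMUT008930.2, listed there without a strand at chr11:23736847-23740357, starts at the same base as the 3′ UTR of Rel-201 (chr11:23736847-23742267, 5421 bases, minus strand) and lies wholly within it over 3511 bases. It had 397, 66 and 15 reads, so its order was the reverse of that of Rel-201. Of the reads of both transcripts it held 57.7% (exact interval 53.9 to 61.4) at the BMM stage, 10.5% (8.18 to 13.1) at the pOC stage and 2.38% (1.34 to 3.90) at the mOC stage. Together the transcripts had 688, 631 and 630 reads, or 75.6, 85.4 and 81.8 RPM. For the sum, still divided by the mRNA-table total, the log2 ratio was 0.18 (0.02 to 0.33) for G1, 0.11 (-0.05 to 0.27) for G2 and -0.06 (-0.22 to 0.10) for G3. The total of both tables, which also counts the added reads, shifts each G1 ratio by -0.20 and each G2 ratio by -0.10. The small G1 excess of the sum thus depends on the scaling. Rel was past 2-fold on the reads of the mRNA table and not on the reads of both tables. Which transcript the reads came from, and the strand of NONMMUT008930.2, could not be read from the tables. Rel was not alone in this, since of 6431 genes overlapped by listed lncRNAs 595 were past 2-fold in G1 and 191 of them (32.1%) were no longer so after adding the overlapping reads, with 160 of 769 (20.8%) in G2.

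**Figure D2:**
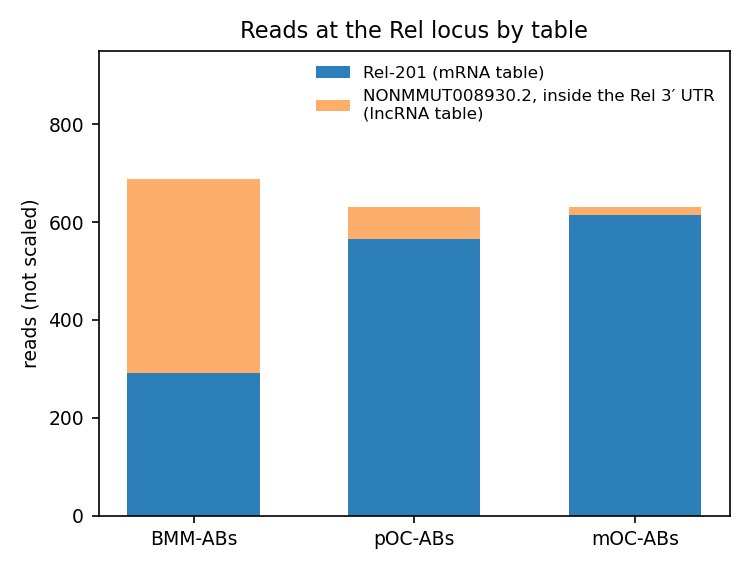
Reads, not scaled to library size, of Rel-201 from the mRNA table and of NONMMUT008930.2, a transcript of the lncRNA table inside the Rel 3′ UTR, stacked for each library. Rel-201 has 291, 565 and 615 reads, while the stacked bars reach 688, 631 and 630.

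Over the log2 ratios of G1 and G2, the nearest of 9880 protein-coding genes with at least 100 reads to Rel were Slc12a5, at a Euclidean distance of 0.04, Cstb at 0.11 and Mt2 at 0.12. Slc12a5 had 24, 46 and 52 reads, Cstb, an inhibitor of cathepsins, 831, 1655 and 1888, and the metallothionein Mt2 256, 464 and 516. These distances are smaller than the counting error of Rel itself, whose G1 interval was 1.05 to 1.47. The order of the 3 genes is thus not resolved at this depth. The likeness rests on 3 libraries and on the mRNA-table reads of Rel alone. With the overlapping lncRNA reads added, the ratios of Rel were 0.18 in G1 and 0.11 in G2.

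Among the other subunits, Nfkb2 (chr19:46304320-46312385, plus strand), the precursor subunit of the alternative branch, was slightly higher in both osteoclast-lineage ABs. It had 947, 926 and 959 reads (104, 125 and 124 RPM), so BMM-ABs were lowest, with log2 ratios of 0.27 in G1 (0.14 to 0.40) and 0.26 in G2 (0.13 to 0.39). Scaled to the total of both tables, the G1 ratio of Nfkb2 was 0.07. Nfkb1 (chr3:135584655-135691547, minus strand), whose product is processed to the p50 subunit, had 1524, 990 and 1167 reads (167, 134 and 151 RPM) and was lowest in pOC-ABs, with log2 ratios of -0.32 (-0.44 to -0.21) for G1, -0.15 (-0.26 to -0.03) for G2 and 0.18 (0.05 to 0.30) for G3. Rela (chr19:5637483-5648130, plus strand), which encodes the transactivating subunit p65, had 988, 692 and 767 reads (109, 93.7 and 99.5 RPM) and followed the same order, with -0.21 in G1 (-0.36 to -0.07) and -0.13 in G2 (-0.26 to 0.01). Relb (chr7:19606217-19629438, minus strand), the partner of processed Nfkb2, was the subunit with the fewest reads, at 251, 183 and 189 (27.6, 24.8 and 24.5 RPM), and its log2 ratios of -0.16 (-0.44 to 0.13), -0.17 (-0.45 to 0.11) and -0.01 (-0.32 to 0.29) could not be told from 0 at this depth.

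The inhibitors did not share a direction. Nfkbia encodes IκBα, the IκB protein that NF-κB induces most promptly, and was the most abundant member per length in every library, at 90.9, 124 and 138 FPKM (chr12:55489410-55492647, minus strand). Its reads were 1291, 1431 and 1605 (142, 194 and 208 RPM), lowest in BMM-ABs, with log2 ratios of 0.45 (0.34 to 0.56) for G1, or 0.25 when scaled to both tables, 0.55 (0.45 to 0.66) for G2 and 0.10 (0.001 to 0.21) for G3. Nfkbie (chr17:45555703-45563169, plus strand), which encodes IκBε, went the other way with 371, 218 and 231 reads (40.8, 29.5 and 30.0 RPM) and log2 ratios of -0.47 in G1 (-0.71 to -0.22) and -0.44 in G2 (-0.69 to -0.20). A transcript of the lncRNA table over its 5′ end, NONMMUT029779.2, had 35, 70 and 35 reads. With these added and the mRNA-table total kept, the G1 value of Nfkbie was -0.19 (-0.42 to 0.03). The total of both tables shifts each G1 ratio by a further -0.20, so whether this interval holds 0 depends on the scaling. Tnfaip3 (chr10:19000910-19015657, minus strand) encodes A20, a ubiquitin-editing enzyme that ends NF-κB signalling, with 270 and 209 reads in BMM-ABs and pOC-ABs (29.7 and 28.3 RPM) and 345 in mOC-ABs (44.8 RPM). It shared the higher G2 level of Nfkbia but not its higher G1 level. The log2 ratio of Tnfaip3 was -0.07 (-0.34 to 0.20) for G1, 0.59 (0.36 to 0.83) for G2 and 0.66 (0.41 to 0.92) for G3, the highest member ratio of G3 on summed reads. From summed FPKM in place of reads the G3 value was 0.25, under the 0.27 of Map3k14, and from coding models alone it was 0.63, under the 0.79 of Nfkb1.

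Of the kinases, Map3k14 (chr11:103219762-103267472, minus strand), which encodes NIK, had 397, 244 and 305 reads (43.6, 33.0 and 39.6 RPM), lowest in pOC-ABs, with log2 ratios of -0.40 (-0.64 to -0.17) for G1 and -0.14 (-0.36 to 0.08) for G2. Ikbkb (chr8:22659212-22706589, minus strand), which encodes IKKβ, was the flattest member on this scale, with 949, 737 and 801 reads (104, 99.8 and 104 RPM) and log2 ratios of -0.06 (-0.20 to 0.08), -0.00 (-0.14 to 0.13) and 0.06 (-0.09 to 0.21). Scaled to both tables it was not the flattest, with -0.26, -0.10 and 0.16 against 0.07, 0.16 and 0.09 for Nfkb2.

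Smaller counts of the lncRNA table lay on further members. On Nfkb1 there were NONMMUT045406.2, with 31, 2 and 13 reads, and a transcript of Gm43430, with 54, 22 and 17, and on the 3′ end of Rela there was NONMMUT033579.2, with 38, 22 and 11. With these added, again over the mRNA-table total, the log2 ratio of Nfkb1 was -0.37 in G1 (-0.48 to -0.25), and that of Rela in G2 was -0.16, with an interval that no longer held 0 (-0.30 to -0.02). In the annotation Nfkb2 also meets Psd at its 3′ end, and Gm15346 lies antisense within Ikbkb. The sources used here do not say whether counting used the strand, so reads of such partners cannot be told apart.

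**Figure D3:**
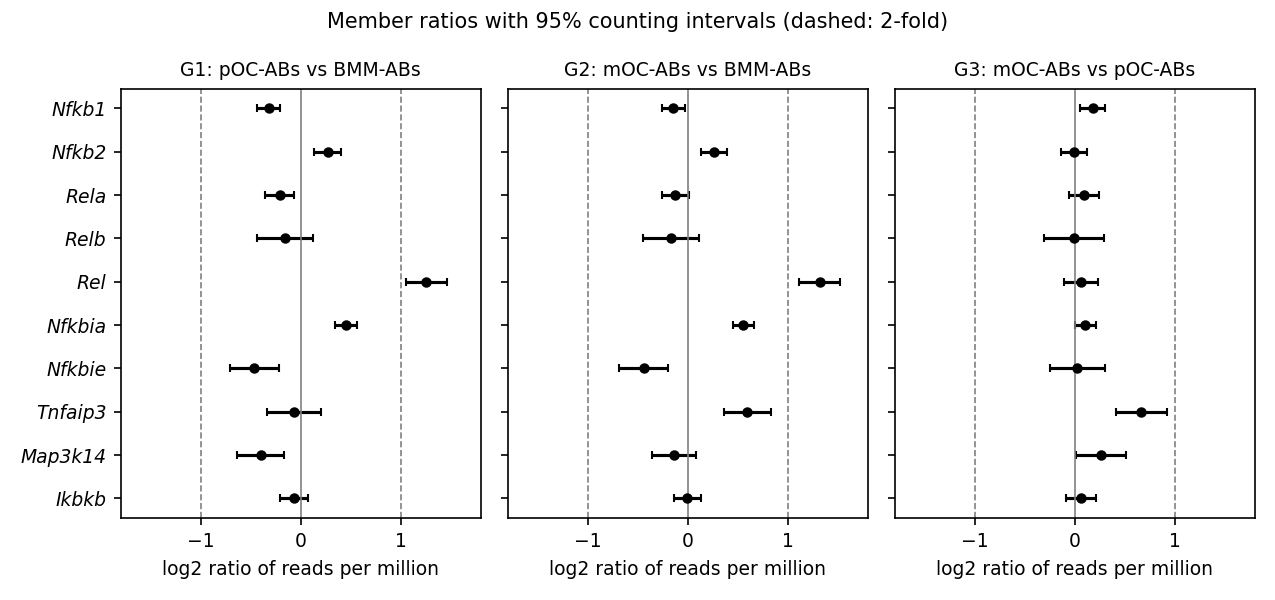
Log2 ratios of RPM for the 10 members in G1, G2 and G3, with 95% counting intervals and dashed lines at 2-fold. Only Rel, at 1.26 and 1.32, lies past a dashed line, and the interval of Nfkbie lies below 0 in G1 and G2 while that of Nfkbia lies above.

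Transcripts of the members varied more than their sums. Of 48 listed transcripts 41 had at least 20 reads, and 18 of these (43.9%) were past 2-fold in G1, against 36.4% of all 34650 transcripts with at least 20 reads. G2 had 16 (39.0%, against 38.1%) and G3 had 17 (41.5%, against 35.8%). Higher and lower were 7 and 11 in G1, against 14.5% and 21.8% of transcripts, 6 and 10 in G2, against 13% and 25.1%, and 10 and 7 in G3, against 15.3% and 20.5%. The shares of the members were near those of all transcripts. In at least 1 of the 3 comparisons 27 of 41 member transcripts (65.9%) were past 2-fold, against 57.1% of all transcripts. These included 11 of 12 of Ikbkb, 5 of 6 of Relb and 5 of 9 of Nfkb1, and neither the transcript of Rela nor that of Nfkbie. Transcripts of a gene share most of their sequence, so how reads were divided among them depends on the counting tool. Intervals for transcripts and their shares take the reads as assigned and do not hold the error of this division.

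In Relb most reads of BMM-ABs were given to another model than in the other libraries. Relb-203 had 197, 0 and 1 reads, Relb-201 had 3, 99 and 100, and Relb-202 had 1, 28 and 56. Against the limit of 3 reads, the level of Relb-203 in pOC-ABs was at least 53.3-fold under that of BMM-ABs, and the counting interval of the ratio, which also holds the error of the 197 reads, ended at -5.42 on the log2 scale. For G2 its log2 ratio was -7.38 (-12.69 to -4.89). Relb-201 had log2 ratios of 5.35 in G1 (3.76 to 7.65) and 5.30 in G2 (3.71 to 7.60), and Relb-202 of 5.11 (2.51 to 10.46) and 6.05 (3.51 to 11.38). The 2203 bases of Relb-203 are contained without a difference in the 2209 bases of Relb-202, which has 6 further bases. No other pair of member transcripts was nested in this way. Counted together, the models with exon 3 held 198 of 201 reads of the 3 full-length models in BMM-ABs (98.5%, exact interval 95.7 to 99.7). In pOC-ABs they held 28 of 127 (22.0%, 15.2 to 30.3), and in mOC-ABs 57 of 157 (36.3%, 28.8 to 44.3). The 9 bases that set them apart from Relb-201 leave 558 and 555 codons. These intervals take every assigned read as informative, although most of the sequence is shared, so they are too narrow. Relb-210, annotated for nonsense-mediated decay, had 13, 23 and 0 reads, and the partial model Relb-209 had 22, 18 and 20.

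Ikbkb showed the same kind of shift at a flat sum. Ikbkb-201 had 1, 341 and 188 reads, and Ikbkb-202 had 214, 7 and 148. The log2 ratios of Ikbkb-201 were 8.71 in G1 (6.23 to 14.02) and 7.79 in G2 (5.30 to 13.11), and that of Ikbkb-202 in G1 was -4.63 (-5.97 to -3.57). Of the reads on both, Ikbkb-202, with the short end printed above, held 214 of 215 in BMM-ABs (99.5%, exact interval 97.4 to 100.0), and 2.01% (0.81 to 4.10) and 44.0% (38.7 to 49.5) in the later stages. Models without an intact coding annotation held a large part of the gene. Ikbkb-208, annotated for nonsense-mediated decay, had 237, 57 and 4 reads, a log2 ratio of -5.65 in G2 (-7.54 to -4.27), Ikbkb-211, with a retained intron, 239, 66 and 200, and Ikbkb-203, also annotated for decay, 101, 159 and 181. Protein-coding models held 24.4% (exact interval 21.7 to 27.3), 48.7% (45.0 to 52.4) and 43.8% (40.3 to 47.3) of Ikbkb reads, so from these models alone the log2 ratio of Ikbkb was 0.93 in G1 and 0.84 in G2.

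In Nfkb1 the retained-intron models were a large part. Nfkb1-202, which keeps an intron, had 378, 331 and 258 reads. Among coding models, Nfkb1-206 had 350, 141 and 311 reads and Nfkb1-203 had 294, 133 and 307. Nfkb1-201 had 207, 180 and 202. Nfkb1-206 and Nfkb1-203 were thus low in pOC-ABs, with log2 ratios in G3 of 1.08 (0.79 to 1.38) and 1.15 (0.85 to 1.45). Nfkb1-204, a second retained-intron model, went the other way, with 134, 170 and 47 reads and -1.92 in G3 (-2.41 to -1.44). Nfkb1-207, annotated for nonsense-mediated decay, had 99 reads in BMM-ABs and 0 in the others, which puts pOC-ABs at least 26.8-fold and mOC-ABs at least 27.9-fold lower against the limit of 3 reads. The counting intervals, which also hold the error of the 99 reads, ended at log2 ratios of -4.42 and -4.48. Retained-intron models took 35.8%, 52.5% and 28.4% of Nfkb1 reads and coding models 55.8%, 45.9% and 70.3%, and from coding models alone the log2 ratio of Nfkb1 was -0.61 in G1, 0.19 in G2, on the other side of 0, and 0.79 in G3.

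**Figure D4:**
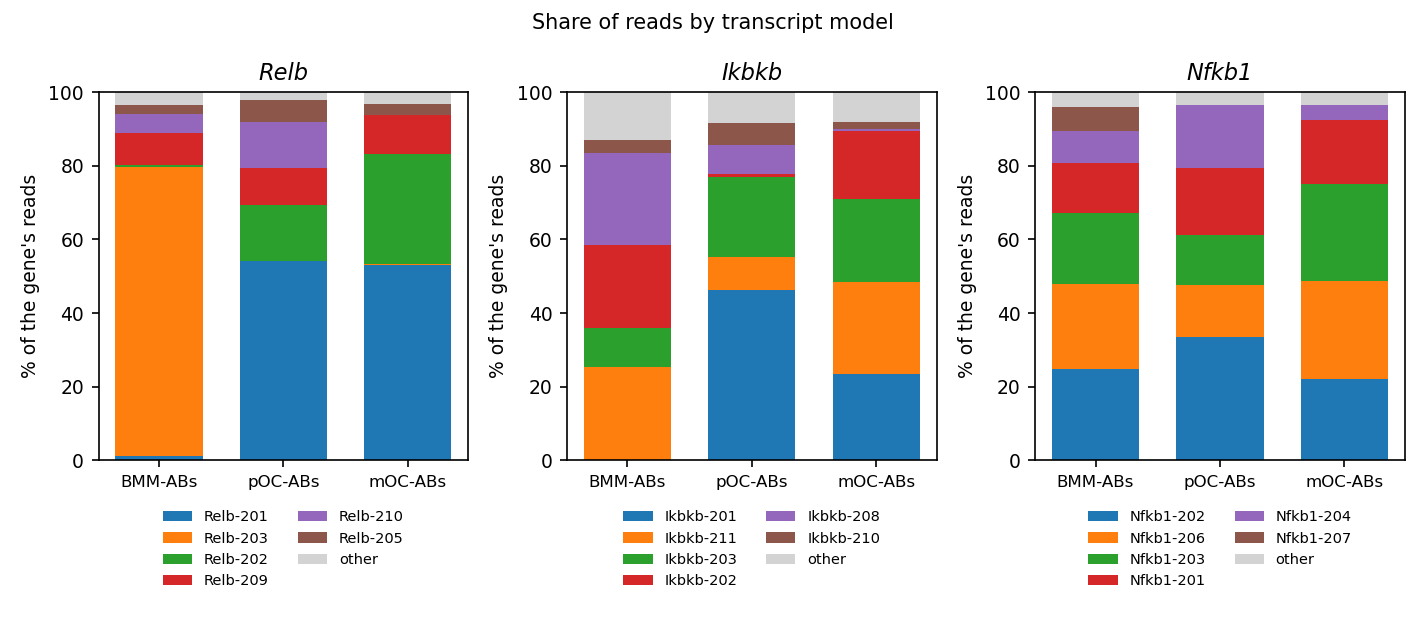
Percentage of the reads of Relb, Ikbkb and Nfkb1 given to each of the 6 transcript models with the most reads, with the rest in grey, in the 3 libraries. Relb-203 takes 78.5% of Relb in BMM-ABs and 0% in pOC-ABs, and Ikbkb-201 takes 0.11% of Ikbkb in BMM-ABs and 46.3% in pOC-ABs.

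The other members were dominated by coding models. Nfkb2-201 had 829, 795 and 897 reads and Nfkb2-202, with another first exon and the same 899 codons, 118, 131 and 62, a G3 ratio of -1.14 (-1.60 to -0.69). The transcripts NONMMUT034937.2 (105, 69 and 62 reads) and NONMMUT034938.2 (25, 24 and 47) of the lncRNA table lie over this 5′ end. Tnfaip3-201 had 122, 118 and 144 reads and Tnfaip3-202, which differs in the first exon and shares its 775 codons, 95, 58 and 151, a G3 ratio of 1.32 (0.87 to 1.78), so the higher Tnfaip3 of mOC-ABs lay mainly in the second model. Nfkbia-201 held 1279, 1418 and 1551 reads, and the retained-intron model Nfkbia-202 had 12, 13 and 54, a log2 ratio of 2.41 in G2 (1.49 to 3.45). Map3k14-201 had 347, 220 and 285 reads and the noncoding Map3k14-203 40, 18 and 11. Over the 10 genes, retained-intron models took 13.6%, 11.8% and 9.91% of the reads, against 5.23%, 4.21% and 3.85% over all genes, and models annotated for decay 6.18%, 3.86% and 2.65%, against 2.14%, 1.78% and 1.91%. Most of these reads lay in Nfkb1 and Ikbkb.

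Of 88 other genes of the pathway, in lists of receptors, kinases, inhibitors, ubiquitin enzymes and targets, 81 were listed and 79 had at least 20 reads. Past 2-fold were 4 genes higher and 6 lower for G1, 5 and 12 for G2, 2 and 7 for G3, with median log2 ratios of 0.00, -0.03 and -0.04. Over all genes 4.87% were past 2-fold higher and 6.06% lower for G1, 4.15% and 9.01% for G2, 3.5% and 6.86% for G3. Of the genes past 2-fold in G1 44.5% were higher, and 26.9% when both tables gave the total.

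Among 23 listed receptors and adaptors 0 were past 2-fold higher and 3 lower for G1, 0 and 2 for G2, with 0 and 1 for G3. Tnfrsf1b, a receptor of TNF, had 703, 181 and 138 reads, log2 ratios of -1.66 (-1.90 to -1.42) and -2.11 (-2.38 to -1.84). Tlr2, a receptor of bacterial lipoproteins, had 1099, 273 and 346 reads, and -1.71 (-1.90 to -1.52) and -1.43 (-1.61 to -1.25). Ltbr, a receptor that uses the alternative branch, had 749, 286 and 480 reads and -1.09 in G1 (-1.29 to -0.89). Tnfrsf11a, which encodes RANK itself, had 657, 386 and 603 reads and was within 2-fold in every comparison. Tnfrsf1b, Tlr2 and Ltbr were highest in BMM-ABs, where macrophage markers were highest too, and Cd40, the receptor past 2-fold in G3, had 19, 21 and 9 reads.

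Of 7 other kinases of the IKK family and partners, 1 was past 2-fold, Ikbke, an IKK-related kinase of the interferon response, with 341, 180 and 81 reads and -1.83 in G2 (-2.20 to -1.48). Of 4 other IκB proteins 1 was past 2-fold, Nfkbiz, the nuclear IκBζ, with 475, 226 and 137 reads and -1.55 in G2 (-1.84 to -1.28). Among 19 ubiquitin enzymes and partners, Tnip3, a partner of A20, had 739, 532 and 128 reads and -2.29 in G2 (-2.57 to -2.02). Ube2v1, a partner of the enzyme that makes the ubiquitin chains of this pathway, had 83, 720 and 99 reads, a log2 ratio of 3.42 in G1 (3.09 to 3.76). It shares exons with the read-through gene Gm20431, which had 1218, 64 and 942 reads, and the sum of both, 1301, 784 and 1041, held no such difference.

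The target list, 26 genes with at least 20 reads, had genes past 2-fold in both directions, with 3 higher and 3 lower in G1 and 5 and 7 in G2. The inflammatory targets Cxcl2, a neutrophil chemokine, and Ptgs2, which encodes cyclooxygenase-2, had 673, 242 and 107 reads and 108, 72 and 35 reads, with G2 ratios of -2.41 (-2.72 to -2.12) and -1.39 (-1.98 to -0.82). Nos2, the inducible nitric oxide synthase, had 135, 306 and 288 reads and 1.33 in G2 (1.03 to 1.64). The osteoclast genes Nfatc1, the master transcription factor of the lineage, and Mmp9, a matrix protease, also stand in the osteoclast marker list above. They were highest in mOC-ABs, with 2566, 2772 and 8463 reads and 8, 17 and 107 reads, and G2 ratios of 1.96 (1.90 to 2.03) and 3.98 (2.95 to 5.23). Median log2 ratios were 0.09 in G1 and -0.23 in G2 for the targets, -0.11 and -0.04 for the receptors, 0.00 and 0.20 for the kinases, -0.33 and -0.21 for the inhibitors and 0.07 and 0.07 for the ubiquitin list. Scaled to the total of both tables, which moved the median of all genes in G1 by -0.20, those of the targets and the ubiquitin list lay on the other side of 0 in G1, at -0.10 and -0.13.

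**Figure D5:**
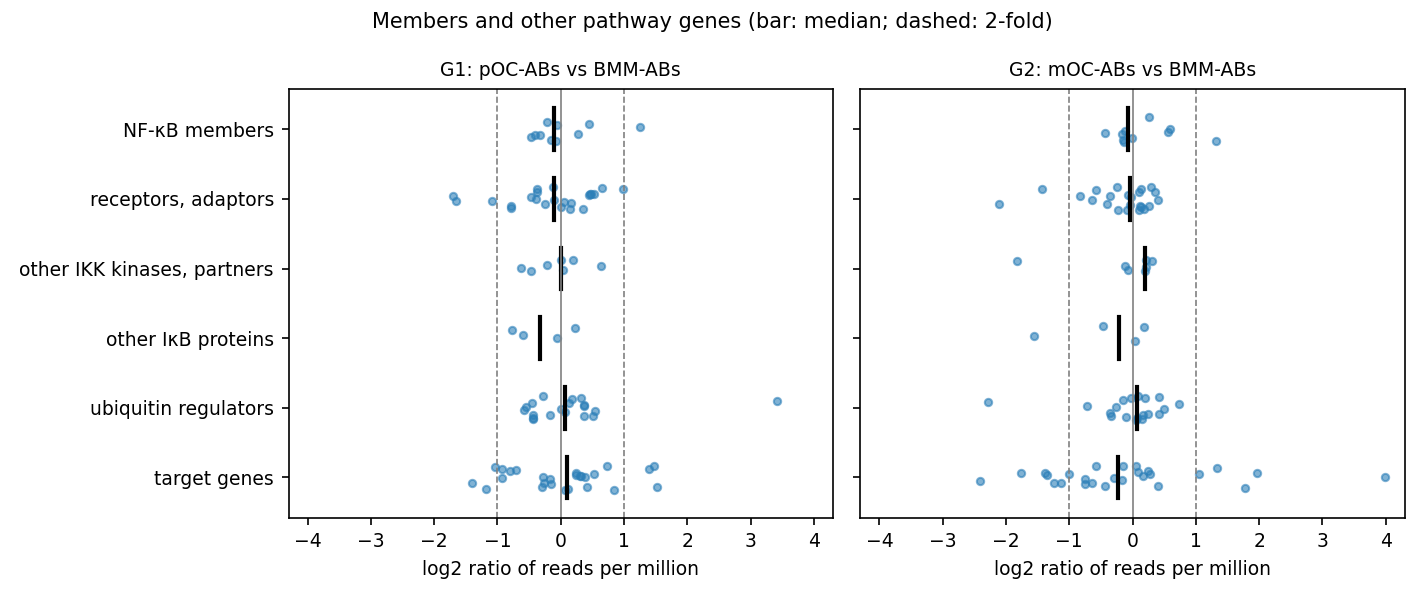
Log2 ratios of RPM in G1 and G2 for the members and for 5 lists of other pathway genes with at least 20 reads, 1 point per gene, with a bar at the median and dashed lines at 2-fold. The medians of the 6 rows lie between -0.33 and 0.20, and the widest scatter is in the targets, where Mmp9 stands at 3.98 in G2, and in the ubiquitin list, where Ube2v1 stands at 3.42 in G1.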

How the data were processed

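ABs of 3 cell types were sequenced, 1 library per group, with paired-end Illumina libraries of poly-T purified RNA per the methods of the study. FastQC, HISAT2, StringTie and GRCm38 are named in the submitters' processing notes, with no role or version. The authors deposited read counts and FPKM for each mRNA and lncRNA transcript, and junction read counts and a score (SRPBM) for each circRNA. No counting tool or strand setting is given in the sources used here.

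Counts of transcripts were summed per gene with GENCODE M21, in which 56440 of 56651 transcripts were found, and divided by the mRNA-table total. Ratios carry exact (Clopper-Pearson) 95% intervals of the reads. Intervals and floors (3 reads, 0.330, 0.406 and 0.389 RPM in the order BMM, pOC, mOC) cover counting error only, since reads carry no molecular identifiers. With 1 library per group no test was possible. Genes and transcripts with at least 20 reads over the 3 libraries entered counts. Promoters were RefSeq windows, matched by symbol for 7 of 10 members, and the 3 others were not in the table. The consensus stood in at least 1 window of 5 of these genes, a count by gene and not by window. Analyses used Python 3.11.15, numpy 2.4.6, pandas 2.3.3 and SciPy 1.17.1, and the interval code was tested on simulated data.

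The members and the gene lists were chosen with earlier results of these data known. Named were all members, their most-read transcripts and those with at least 100 reads past 2-fold while the gene was not, up to 5 genes per list past 2-fold with at least 100 reads, the 3 genes nearest to Rel, and RNAs of the other tables on member loci. Oscar, Itgb3, Ighm, Cd79a, Tnfrsf11a, Gm20431, Cd40 and transcripts under 100 reads were named after their values were seen. Alternatives were other scalings, FPKM, read minimums, a limit of 1.5, coding models only and overlapping lncRNA reads. Where overlapping reads were added to members, the divisor stayed the mRNA-table total, which does not count them.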

Additional observations from a re-analysis of the deposited data

Results flagged for a closer look

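Junction reads of circular RNAs were outside the comparisons above. Of 1372 circRNAs listed, 1 came from a member, a back-splice of Nfkb1 at chr3:135655500-135669339 (GRCm38, minus strand) that joins the end of exon 6 to the start of exon 2 of Nfkb1-201 and spans 326 bases of exons. It is given here because it had 8 junction reads in pOC-ABs and 16 in mOC-ABs, above the 2 of BMM-ABs, the library of cells without RANKL. The junction is shown with the bases of exon 2 in capitals.
Nfkb1 back-splice: tacccacaggtcaaaGTACCCTCAGAGGCC

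The log2 ratio was 2.40 (0.08 to 5.67) for G1, 3.10 (1.01 to 6.27) for G2 and 0.70 (-0.61 to 2.14) for G3, scaled by the constant of each library that the deposited SRPBM implies. Scaled to the mRNA-table totals, an alternative chosen after seeing the data, it was 2.30 for G1, with an interval that held 0 (-0.02 to 5.57), 3.24 for G2 (1.15 to 6.40) and 0.94 for G3 (-0.37 to 2.37). The share of all circRNAs with an interval above 0 was 3.43%, 4.81% and 3.06% on the SRPBM scale, with no read minimum. All circRNAs together had 3413, 2380 and 4014 junction reads, and those with few reads could not reach such an interval. The Nfkb1 circRNA ranked 53rd by reads, so these shares are no like-for-like background for it. Summed over all its models, linear Nfkb1 had its highest level in BMM-ABs. From coding models alone its G2 log2 ratio was 0.19, and that of Nfkb1-201 was 0.20 (-0.08 to 0.49). The direction of linear against circular RNA thus depends on the models counted. Neither replicates nor a test stand behind these few reads. The methods of the study describe poly-T purification of the RNA, and how such selection acted on circular RNA in each library was not tested.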

How the results depend on the processing

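No paired analysis was possible because each group had 1 library. Leaving out a replicate was not possible either. Adding the overlapping reads of the lncRNA table left 0 members past 2-fold in G1 and 0 in G2, since Rel was the only one. With a limit of 1.5 there were 1, 2 and 1 of 10 members past it in G1, G2 and G3. Of the 12713 genes tested, 3758, 3792 and 3058 were past that limit. Over all genes, 1390, 1673 and 1317 were past 2-fold in G1, G2 and G3, and 728, 972 and 667 were so by summed FPKM with a pseudocount of 1. They were 3041, 3388 and 3019 without a read minimum and 771, 990 and 645 with at least 100 reads. Member transcripts past 2-fold were 18, 16 and 17, and 10, 8 and 7 by FPKM with a pseudocount of 1. For the latter counts the share of all transcripts was not computed, so they have no background here. The cause was not tested beyond what each setting does by construction. The setting that added overlapping reads for all genes was chosen after seeing the data.

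Of 30 member ratios, 0 left their counting interval under size factors, the upper quartile or without the 10 most read transcripts, 5 did under the total of both tables, 1 by summed FPKM, 6 from coding models alone and 3 with overlapping reads. Scaled to both tables, higher genes made up 26.9% of those past 2-fold in G1, against 44.5%, and the 5 G1 ratios outside their intervals were -0.52 for Nfkb1, 0.07 for Nfkb2, -0.41 for Rela, 0.25 for Nfkbia and -0.26 for Ikbkb. The members with the fewest reads, such as Relb, had the widest intervals. The main limits are the single libraries, the unknown counting of shared sequence and the unstranded lncRNA entries.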
